A study of Mus musculus with 12 samples.

Results

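The NF-kB system was followed through 10 genes in sorted mouse prostate epithelium of castrated and intact mice. They were the subunit genes Nfkb1, Nfkb2, Rela and Relb, the inhibitor genes Nfkbia, Nfkbiz and Tnfaip3, and the target genes Birc3, Icam1 and Il1a. They were chosen by symbol, through probe sets annotated to that single gene, and where a gene had several, the brightest on average stood for it. Of the 10 genes, 9 had such a probe set and 8 passed the filter on low values, out of 18193 and 14645 genes in the whole table. Nfkb1 was not analysed here, and Il1a had a probe set that did not pass. Adult C57BL/6 males were orchiectomised at 8 weeks of age or stayed intact, and prostates were taken 4 weeks later, in 3 sets of animals. After dissociation, lineage-negative, EpCAM-positive cells were sorted by the integrin CD49f, with low staining taken as luminal and high staining as basal. The 4 groups were castrated luminal, intact luminal, castrated basal and intact basal, with 3 Affymetrix arrays each. No group carried a transgene, and the labels do not say how many animals made up 1 array.

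NF-kB is a family of paired transcription factors that inhibitor proteins hold in the cytoplasm. Cytokines such as tumour necrosis factor and interleukin-1 activate a kinase complex that marks the inhibitor for destruction, and the freed subunits enter the nucleus and switch on genes of inflammation and survival. Several of those targets encode the pathway's own brakes, so that inhibitor transcripts are commonly read as targets too. In the prostate, the pathway is best known from inflammation and from tumours that grow without androgen.

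Promoter windows from RefSeq (GRCm38.p6), from 250 bases before to 50 bases after a gene's start, were searched for the NF-kB consensus of 10 letters on both strands. A match was found in 8.46% of all 32851 windows of this length. Windows were at hand for 7 of the 10 genes, and 3 of these (Nfkb2, Nfkbia and Tnfaip3) had a match in at least 1 window, in 5 of 10 windows in all, of which a pair of overlapping Nfkb2 windows shared 1 match. One window each is shown for the 3 genes with a match, which encode a subunit and both classes of brake, and for Icam1 and Birc3, the genes that rose after castration. Capitals mark matched letters, overlapping matches merged.
Nfkbia, chr12:55492598-55492897, minus strand: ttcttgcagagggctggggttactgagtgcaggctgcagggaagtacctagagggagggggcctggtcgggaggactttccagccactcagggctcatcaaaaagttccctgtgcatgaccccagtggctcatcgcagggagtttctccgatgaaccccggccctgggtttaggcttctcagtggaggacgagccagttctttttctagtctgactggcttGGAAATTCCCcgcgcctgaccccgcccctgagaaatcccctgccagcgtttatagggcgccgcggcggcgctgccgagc
Nfkb2, chr19:46304487-46304786, plus strand: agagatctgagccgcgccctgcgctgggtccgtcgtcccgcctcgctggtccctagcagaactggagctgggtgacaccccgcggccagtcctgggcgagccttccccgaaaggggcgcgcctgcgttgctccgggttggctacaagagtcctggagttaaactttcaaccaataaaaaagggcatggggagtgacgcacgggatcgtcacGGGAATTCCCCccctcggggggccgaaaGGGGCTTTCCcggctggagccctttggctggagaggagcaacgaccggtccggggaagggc
Tnfaip3, chr10:19015361-19015660, minus strand: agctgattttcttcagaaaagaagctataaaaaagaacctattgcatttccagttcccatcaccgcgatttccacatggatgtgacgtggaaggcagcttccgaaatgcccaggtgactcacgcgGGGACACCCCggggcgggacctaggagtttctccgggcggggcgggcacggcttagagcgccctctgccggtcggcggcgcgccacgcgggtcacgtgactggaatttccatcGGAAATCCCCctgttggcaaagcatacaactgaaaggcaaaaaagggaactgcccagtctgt
Icam1, chr9:21015690-21015989, plus strand: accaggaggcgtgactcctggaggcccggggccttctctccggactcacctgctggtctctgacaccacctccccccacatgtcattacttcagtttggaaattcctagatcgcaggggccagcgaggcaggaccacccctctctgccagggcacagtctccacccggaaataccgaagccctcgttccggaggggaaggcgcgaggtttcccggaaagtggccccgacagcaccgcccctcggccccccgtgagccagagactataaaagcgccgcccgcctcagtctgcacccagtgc
Birc3, chr9:7873121-7873420, minus strand: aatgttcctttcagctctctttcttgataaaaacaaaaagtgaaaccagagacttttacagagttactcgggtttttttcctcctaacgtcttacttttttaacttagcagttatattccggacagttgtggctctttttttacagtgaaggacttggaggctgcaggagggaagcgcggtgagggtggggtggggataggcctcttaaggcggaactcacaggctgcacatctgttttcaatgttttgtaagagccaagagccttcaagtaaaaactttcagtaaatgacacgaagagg
The Nfkbia match lay between -29 and -20 from the start, and the shown Tnfaip3 window had 2 separate stretches. The Icam1 and Birc3 windows held no match, which says only that these letters were not in this stretch.

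The deposited values were MAS5 signals, a linear measure of hybridisation brightness, scaled so that the trimmed mean of every array was 500. Differences are given as log2 of castrated over intact or of luminal over basal, after 16 was added to each signal, with the standard error and the adjusted p of limma (n = 3 arrays a group, Benjamini-Hochberg over all genes tested, threshold 0.05). The number of arrays limits the precision, and signals are compared between groups for 1 probe set, never between genes. Array medians were 57.7 to 73.9 on the 6 castrated arrays and 78.8 to 99.9 on the 6 intact arrays, with no overlap, so that median centring raises the castration differences of all genes. Arrays of 1 group correlated at 0.863 to 0.967 across genes. The standard errors rest on 1 spread shared by the 4 groups. The median SD within a group was 0.32 in castrated luminal, 0.58 in intact luminal and 0.61 in both basal groups. With only the groups compared, castration calls over all genes went from 858 to 1215 in luminal and from 384 to 120 in basal cells. In intact mice the markers differed in the direction of the labels: all 7 measured luminal markers were higher in intact luminal than in intact basal cells, and all 8 basal markers were lower. The luminal marker Pbsn still read 9468, 4705 and 12419 in intact basal cells. In basal cells 3 of the 7 luminal markers passed lower after castration and 1 higher, where 1.5% of all genes were lower and 1.12% higher. The part of luminal transcripts in the basal values was not tested. Among the 8 basal markers, Itga6 encodes CD49f, the integrin used for sorting, and is no independent check of the sort. In castrated mice 5 of the 7 luminal markers were higher and all 8 basal markers lower in luminal cells, while Krt18 (-0.20, adjusted p = 0.416) and Msmb (1.34, adjusted p = 0.356) did not pass. Each array measured a pool of cells, so fewer cells of a type and less RNA per cell cannot be told apart.

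In luminal cells, castration was followed by higher Icam1 and Birc3. Of the 8 genes tested, 2 passed, both higher, and none passed lower, whereas 5.86% of all genes passed, 2.9% higher and 2.96% lower. The median difference of the 8 genes was 0.97, against -0.09 for all genes tested. On 6 of the 8 genes (Rela, Relb, Nfkbiz, Tnfaip3, Birc3 and Icam1) every castrated luminal array lay above every intact luminal array, which held for 14.9% of all genes. In basal cells none of the 8 passed by limma, whereas 2.62% of all genes passed, 1.12% higher and 1.5% lower. An unadjusted p under 0.05 was seen for 1 (Nfkbiz, lower), and the share of all genes at that level was not counted. Nfkbiz was also the one gene of the 8 whose basal groups were apart, lower after castration, as held for 11.1% of all genes, and the median difference of the 8 was -0.12, against -0.11 for all genes.

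**Figure D1:**
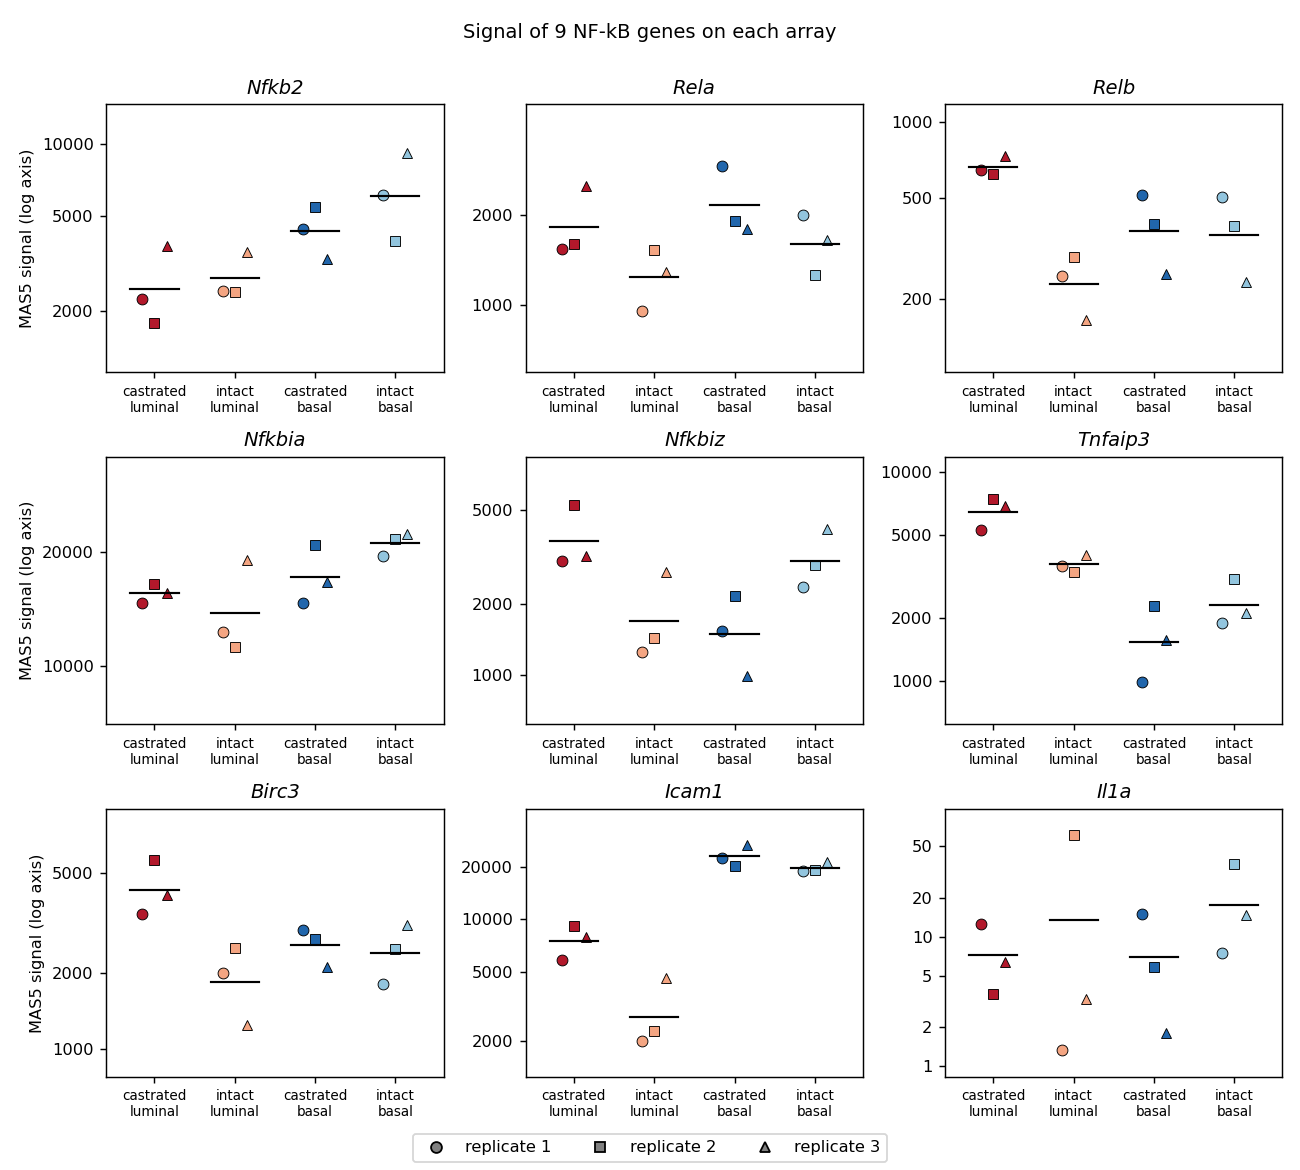
MAS5 signal (vertical, log axis with its own range per gene) of the 9 measured genes on each of the 12 arrays, by group. Symbols are the replicates and bars are means on the log scale; Icam1 stands highest on all 6 basal arrays, and Relb, Tnfaip3 and Birc3 stand highest on the castrated luminal arrays.

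Among the subunits, Relb, which pairs with the product of Nfkb2 in the slower, non-canonical branch of the pathway, had the largest castration difference in luminal cells without passing. Relb read 646, 622 and 732 in castrated luminal cells, against 246, 293 and 165 in intact luminal cells. The groups were apart, and the difference was 1.48 ± 0.47 with an adjusted p of 0.0747. In basal cells Relb read 512, 396 and 252 in castrated mice, against 504, 389 and 232 in intact mice, a difference of 0.05 ± 0.47 (adjusted p = 0.971). The castrated luminal group was thus the highest of the 4, above castrated basal and intact basal with no overlap, and intact luminal was the lowest of the means, overlapping both basal groups. Under median centring, Relb passed in luminal cells (1.86, adjusted p = 0.0163), as it did when only the groups compared were fitted (adjusted p = 0.0378).

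Nfkb2, whose precursor protein both inhibits NF-kB and yields a subunit, differed between the cell types in intact mice and not detectably with castration. Nfkb2 read 2439, 2419 and 3540 in intact luminal cells, against 6154, 3925 and 9151 in intact basal cells. All luminal values were lower than all basal values, and the difference passed at -1.13 ± 0.33 (adjusted p = 0.0240). After castration Nfkb2 read 2254, 1785 and 3746 in luminal cells, against 4426, 5477 and 3319 in basal cells, with overlap (-0.80 ± 0.33, adjusted p = 0.108). Castrated minus intact gave -0.16 ± 0.33 in luminal cells (95% interval -0.86 to 0.55) and -0.48 ± 0.33 in basal cells (-1.19 to 0.22). The probe set read so far was 1429128_x_at. A second probe set of Nfkb2, 1425902_a_at, was also lower in intact luminal than in intact basal cells (-2.03 ± 0.59, adjusted p = 0.0236 over all probe sets). Its arrays overlapped, with 625, 233 and 181 in intact luminal cells, against 503, 1167 and 3442 in intact basal cells. In castrated mice luminal minus basal had the opposite sign on it (0.42 ± 0.59, adjusted p = 0.693), against -0.80 on the first. In castrated against intact luminal cells the same probe set gave 1.31 ± 0.59 (adjusted p = 0.239), where the first gave a value near 0. The intact call of the first probe set was lost without intact luminal replicate 1 (adjusted p = 0.0774) or 2 (0.0809) and without intact basal replicate 1 (0.0615) or 3 (0.117).

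Rela, which encodes the main activating subunit of the canonical branch, passed in no comparison. Its signals were 1530, 1590 and 2484 in castrated luminal cells, against 954, 1526 and 1289 in intact luminal cells. Although these arrays did not overlap, the lowest castrated and the highest intact array differed little, and the difference was 0.56 ± 0.33 (adjusted p = 0.382). In basal cells Rela read 2917, 1906 and 1787 in castrated mice, against 1987, 1254 and 1643 in intact mice (0.42 ± 0.33, adjusted p = 0.544). Luminal minus basal gave -0.37 ± 0.33 in intact and -0.24 ± 0.33 in castrated mice.

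Among the inhibitors, Tnfaip3 was higher in luminal than in basal cells of castrated mice on both of its probe sets, and Nfkbiz on 1 of 3. Tnfaip3 encodes a ubiquitin-editing enzyme that shuts down signalling below cytokine receptors. Its signals were 5307, 7428 and 6881 in castrated luminal cells, against 989, 2289 and 1575 in castrated basal cells. Every luminal array lay above every basal array, and the difference of 2.07 ± 0.30 (adjusted p = 1.23e-04) was 4.2-fold. In intact mice Tnfaip3 read 3551, 3324 and 4032 in luminal cells, against 1884, 3094 and 2117 in basal cells, apart but without passing (0.65 ± 0.30, adjusted p = 0.156). Castrated minus intact was 0.83 ± 0.30 in luminal cells (adjusted p = 0.126) and -0.59 ± 0.30 in basal cells (adjusted p = 0.323), and the luminal value passed under median centring (adjusted p = 0.0319) and with only the groups compared (0.0285). The other Tnfaip3 probe set, 1450829_at, gave 2.53 ± 0.59 for luminal minus basal in castrated mice (adjusted p = 0.00676 over all probe sets).

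Nfkbiz encodes an atypical nuclear inhibitor that can also act as a coactivator of a subset of targets. It had signals of 3036, 5234 and 3181 in castrated luminal cells, against 1545, 2172 and 995 in castrated basal cells. The groups were apart and the difference passed at 1.30 ± 0.37 (adjusted p = 0.0198); it did not pass without castrated luminal replicate 2 (adjusted p = 0.115) or castrated basal replicate 3 (0.0846). The other probe sets did not share this call, with 0.24 on 1448728_a_at (adjusted p = 0.765) and 0.11 on 1457404_at (adjusted p = 0.914). In intact mice the order of the means was the opposite, with 1249.95, 1440 and 2734 in luminal cells, against 2355, 2910.3 and 4138 in basal cells, and the arrays overlapped (-0.84 ± 0.37, adjusted p = 0.127). There 1448728_a_at passed over all probe sets (-1.28 ± 0.42, adjusted p = 0.0458), while 1457404_at had the opposite sign (0.36 ± 0.48, adjusted p = 0.678). Castrated minus intact was 1.11 ± 0.37 in luminal cells (adjusted p = 0.0891) and -1.02 ± 0.37 in basal cells (adjusted p = 0.1505), with no overlap in either cell type. Without intact luminal replicate 3, the highest of its group, the luminal difference passed at 1.45 (adjusted p = 0.0345). The probe set 1448728_a_at gave 1.05 and -0.47 for the same pair of differences and 1457404_at gave 0.07 and 0.32, so the last did not share the pattern.

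Nfkbia encodes the classical inhibitor that holds the subunits in the cytoplasm and is made again after each round of activation. Its leading probe set, 1420089_at, had signals of 12291, 11245 and 18995 in intact luminal cells, against 19558, 21628 and 22274 in intact basal cells. All luminal values were lower, and the difference was -0.61 ± 0.19 (adjusted p = 0.0277). The 4 further probe sets passed in the same direction at -0.71 to -1.13 when every probe set was tested. In castrated mice the luminal signals were 14649, 16496 and 15594, against 14653, 20842 and 16686 in basal cells, and the difference was -0.15 ± 0.19 (adjusted p = 0.643), turning to 0.32 with quantile normalization. The further probe sets gave small positive values in that comparison (0.02 to 0.32), none of them passing.

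The 5 probe sets of Nfkbia disagreed on castration in luminal cells. The leading probe set gave 0.17 ± 0.19 (adjusted p = 0.672), with overlap between groups. The others gave 0.45 (1449731_s_at), 0.68 (1420088_at), 0.78 (1448306_at) and 1.04 (1438157_s_at), and 1420088_at and 1438157_s_at passed over all probe sets (adjusted p = 0.0440 and 0.0432). On 1448306_at, castrated luminal cells read 3316, 4019 and 3030.2, against 2257, 1711 and 2058 in intact luminal cells, so these groups were apart. Intact luminal replicate 3 was the highest array of its group on 3 of the 5 probe sets and the lowest on 1438157_s_at. For the leading probe set, the call between intact luminal and intact basal cells was lost without intact luminal replicate 1 (adjusted p = 0.101) or 2 (0.134), without intact basal replicate 2 (0.0716) or 3 (0.0800), with quantile normalization (0.0838), median centring (0.0765) or only the groups compared (0.0675), and without an intensity trend (0.207).

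**Figure D2:**
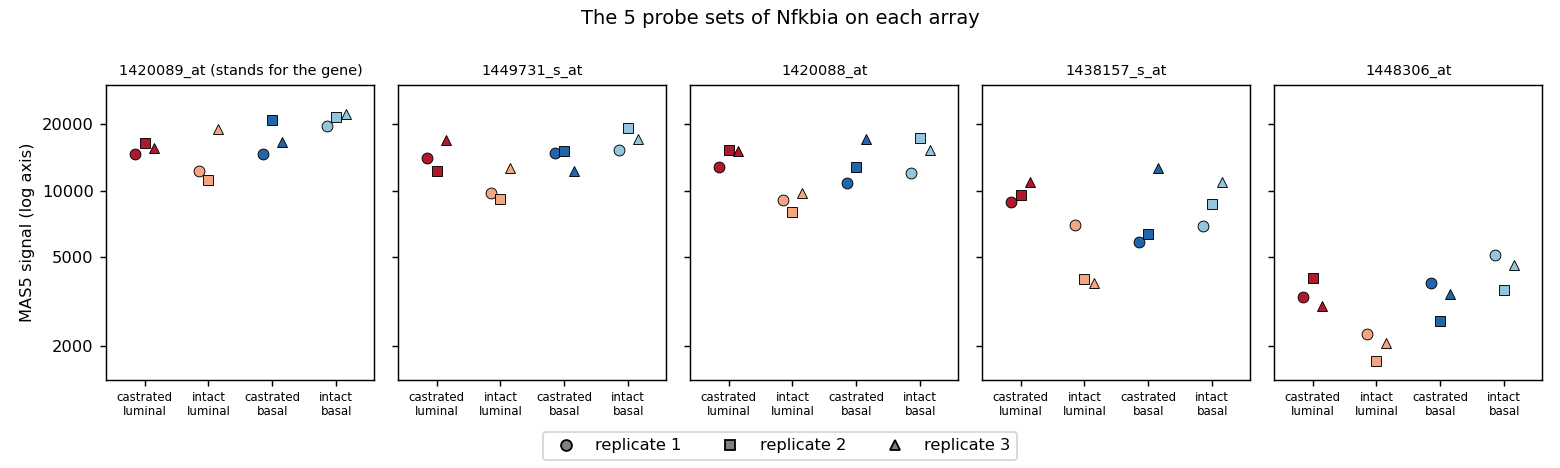
MAS5 signal (vertical, shared log axis) of the 5 Nfkbia probe sets on each array, by group, with 1 symbol per replicate. On all 5 probe sets the intact luminal arrays have a lower mean than the intact basal arrays; the gap between castrated and intact luminal arrays is small on the leading probe set and larger on 1438157_s_at.

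Icam1, the adhesion molecule that leukocyte integrins bind, passed in 3 of the 5 comparisons. Its signals were 5873, 9107 and 7894 in castrated luminal cells, against 1999, 2297 and 4598 in intact luminal cells. All castrated arrays were higher, and the difference of 1.43 ± 0.26 (adjusted p = 0.00247) was 2.7-fold. Basal cells read 22564, 20143 and 26851 in castrated mice, against 18813, 19095 and 21269 in intact mice, which overlapped (0.23 ± 0.26, adjusted p = 0.707, 95% interval -0.32 to 0.77). Luminal cells lay below basal cells in intact mice by -2.83 ± 0.26 (adjusted p = 1.03e-06) and in castrated mice by -1.62 ± 0.26 (adjusted p = 2.70e-04). The order of the groups was castrated basal, intact basal, castrated luminal and intact luminal, and only the leading pair did not differ beyond its spread. The castration difference in luminal cells was 1.16 to 1.80 over all leave-outs, and passed without any single array; it did not pass without all arrays of replicate 1 (adjusted p = 0.0533) or 2 (0.146), or without an intensity trend (0.0531).

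Birc3 encodes a ubiquitin ligase of the inhibitor-of-apoptosis family that acts at the tumour necrosis factor receptor. It had signals of 3444, 5626 and 4087 in castrated luminal cells, against 2007, 2510.04 and 1239 in intact luminal cells. The groups were apart, and Birc3 rose by 1.21 ± 0.31 (adjusted p = 0.0283), or 2.3-fold. In basal cells it read 2976, 2743 and 2113 in castrated mice, against 1808, 2488 and 3098 in intact mice, with full overlap (0.10 ± 0.31, adjusted p = 0.909). The luminal call was fragile: it was lost without castrated luminal replicate 1 (adjusted p = 0.0503), 2 (0.159) or 3 (0.0931) and without intact luminal replicate 1 (0.0506) or 3 (0.112). A dimmer Birc3 probe set, 1425223_at, gave -0.66 ± 1.01 (adjusted p = 0.787). Luminal minus basal did not pass in castrated (0.73 ± 0.31, adjusted p = 0.121) or intact mice (-0.38 ± 0.31, adjusted p = 0.444).

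Il1a, the alarm cytokine interleukin-1 alpha, was near the floor of the arrays. It read 12.5, 3.58 and 6.37 in castrated luminal, 1.33, 60.8 and 3.32 in intact luminal, 15.1, 5.85 and 1.80 in castrated basal and 7.52, 36.4 and 14.6 in intact basal cells. Only 1 of these 12 values, in intact luminal replicate 2, exceeded the 40th percentile of its array, so Il1a was not tested and no order of the groups can be read from it.

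**Figure D3:**
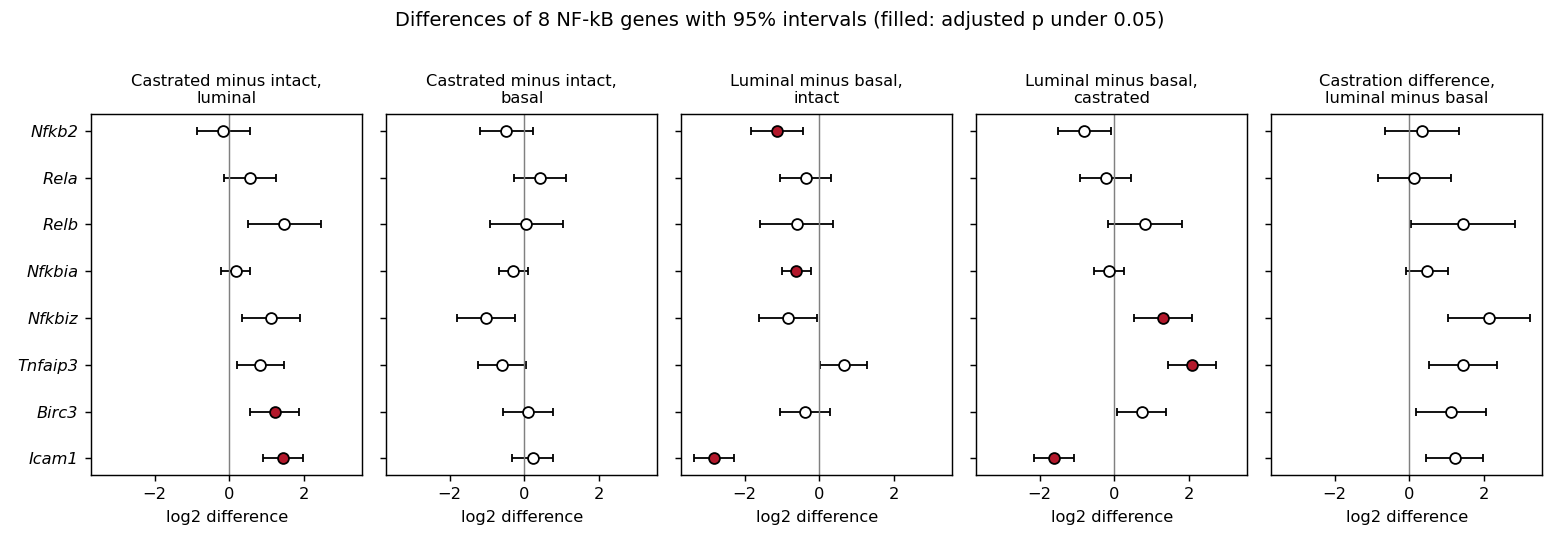
log2 differences (horizontal) of the 8 tested genes in the 5 comparisons, with 95% intervals from limma; filled points have an adjusted p under 0.05. Filled points are Birc3 and Icam1 for castration in luminal cells, Nfkb2, Nfkbia and Icam1 for luminal minus basal in intact mice, and Nfkbiz, Tnfaip3 and Icam1 in castrated mice.

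Between the cell types, 3 of the 8 genes passed in intact mice, all lower in luminal cells (Nfkb2, Nfkbia and Icam1), where 19.5% of all genes passed, 11% higher and 8.45% lower. Arrays were apart for 1 gene higher in luminal cells (Tnfaip3) and 3 lower, as for 18% and 14% of all genes. In castrated mice 3 passed as well, with Nfkbiz and Tnfaip3 higher and Icam1 lower in luminal cells, where 18.4% of all genes passed, 11.2% higher and 7.22% lower. Arrays were apart for 4 genes higher (Relb, Nfkbiz, Tnfaip3 and Birc3) and 1 lower, as for 23.6% and 17.5% of all genes. The median luminal minus basal difference of the 8 genes was -0.61 in intact mice and 0.29 in castrated mice, against 0.07 and 0.08 over all genes. The same castrated luminal and castrated basal arrays enter the castration comparisons, so these values are not independent of those above.

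Whether castration acted differently in the 2 cell types was tested directly, as the luminal minus the basal castration difference. None of the 8 genes passed by limma (1.15% of all genes did, 0.676% with a more positive and 0.471% with a more negative difference in luminal cells), and 5 had an unadjusted p under 0.05, all with a more positive difference in luminal cells. How many of all genes lay under that unadjusted level was not counted, so the 5 are not read as a result. Nfkbiz came nearest, at 2.13 ± 0.52 (adjusted p = 0.0604), followed by Tnfaip3 (1.43 ± 0.43) and Icam1 (1.21 ± 0.36), both at an adjusted p of 0.142. Nfkbiz passed without intact luminal replicate 3 (2.47, adjusted p = 0.0215) or castrated basal replicate 2 (2.40, adjusted p = 0.0439), and Icam1 passed without intact luminal replicate 3 (1.57, adjusted p = 0.00932). On the probe sets that stood for the genes, all 8 differences were positive, with a median of 1.16 against 0.03 over all genes. How many of all genes were positive was not counted. Of the further probe sets, Birc3 1425223_at (-1.04 ± 1.43) and Nfkbiz 1457404_at (-0.25 ± 0.69) were negative and the rest positive, none of them passing.

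The rest of the pathway was described with 84 further genes in 4 roles, of which 75 had a probe set and 73 passed the filter. In luminal cells 10 of the 73 rose with castration, 3 fell and 60 did not pass, where 2.9% of all genes were higher and 2.96% lower. Their median difference was 0.40 against -0.09 over all genes. Under median centring, which moved the median of all genes to 0.29, 22 were higher and 1 lower, while over all genes the calls turned to 1021 higher and 252 lower, against 424 and 434 without it. With quantile normalization 12 were higher and 1 lower. In basal cells 1 rose, 2 fell and 70 did not pass, shares near the 1.12% higher and 1.5% lower of all genes. Their median was -0.30 against -0.11 over all genes. Those past the threshold were Tnfrsf1a, the main tumour necrosis factor receptor (1.51 ± 0.36, adjusted p = 0.0365), the double-stranded RNA sensor Tlr3 (-2.15 ± 0.48, adjusted p = 0.0283) and the monocyte chemokine Ccl2 (-3.52 ± 0.73, adjusted p = 0.0189). Their calls were lost under 7, 5 and 4 of the 12 leave-outs of 1 array, in that order, and that of Tnfrsf1a also with the replicate number as a block (adjusted p = 0.0531). Ccl2 read 13.0 and 5.50 on castrated basal replicates 2 and 3, under the 40th percentiles of 38.9 and 37.1. The size of its fold thus depends on the added constant.

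Of 18 receptors and ligands, 2 rose in castrated luminal cells, where 2.9% of all genes were higher. Il1rn, the antagonist that blocks the interleukin-1 receptor, had a signal of 2529 ± 106 in castrated luminal cells and 125 ± 23.2 in intact luminal cells (SD, n = 3 each; 4.19 ± 0.52, adjusted p = 1.25e-04), and passed under all 12 leave-outs of 1 array. In basal cells it read 135 ± 60.3 in castrated and 61.0 ± 32.1 in intact mice, without passing. Cd14, the endotoxin co-receptor, rose by 1.94 ± 0.53 (adjusted p = 0.0396) and lost its call under 6 of 12 leave-outs and with the replicate number as a block (adjusted p = 0.0572). Il1r1, the signalling receptor that Il1rn blocks, narrowly missed the threshold (1.40 ± 0.40, adjusted p = 0.0502).

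Of 19 adaptors and kinases, none passed with castration in luminal or basal cells by limma, where 5.86% and 2.62% of all genes passed. An unadjusted p under 0.05 was seen for 1 in luminal cells (higher) and 6 in basal cells (3 higher, 3 lower). The share of all genes at that level was not counted. Of 13 genes made up of the subunit gene Rel and further inhibitors, 2 rose in castrated luminal cells and none fell. Over all genes 2.9% were higher there and 2.96% lower. Tnip1, a partner of the Tnfaip3 protein, had a signal of 3956 ± 934 in castrated luminal cells and 1019 ± 343 in intact luminal cells (1.97 ± 0.35, adjusted p = 0.00220). Nfkbie, a further cytoplasmic inhibitor, read 952 ± 174 in castrated luminal cells and 134 ± 106 in intact luminal cells (2.89 ± 0.64, adjusted p = 0.0112), and lost its call under 2 of 12 leave-outs (adjusted p up to 0.0615).

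Of 23 further targets, 6 rose and 3 fell in castrated luminal cells, where 2.9% of all genes were higher and 2.96% lower. The neutrophil chemokines Cxcl5 (5.76 ± 0.58), Cxcl2 (3.35 ± 0.50) and Cxcl1 (1.37 ± 0.21) had the lowest adjusted p-values, each passing under all 12 leave-outs of 1 array. The Cxcl5 signal lay under the 40th percentile on all 3 intact luminal arrays, so that the size of its fold depends on the added constant. Selp, an adhesion molecule of endothelium and platelets, fell (-3.47 ± 0.76, adjusted p = 0.0103), with 11.2 ± 9.59 in castrated and 420.1 ± 479 in intact luminal cells. It lay under that percentile on all castrated luminal arrays and lost its call under 2 of 12 leave-outs. Ccl2 fell here too, as in basal cells, with 30.4 ± 9.52 in castrated and 398 ± 425 in intact luminal cells. Its luminal call was lost under 7 of 12 leave-outs of 1 array.

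**Figure D4:**
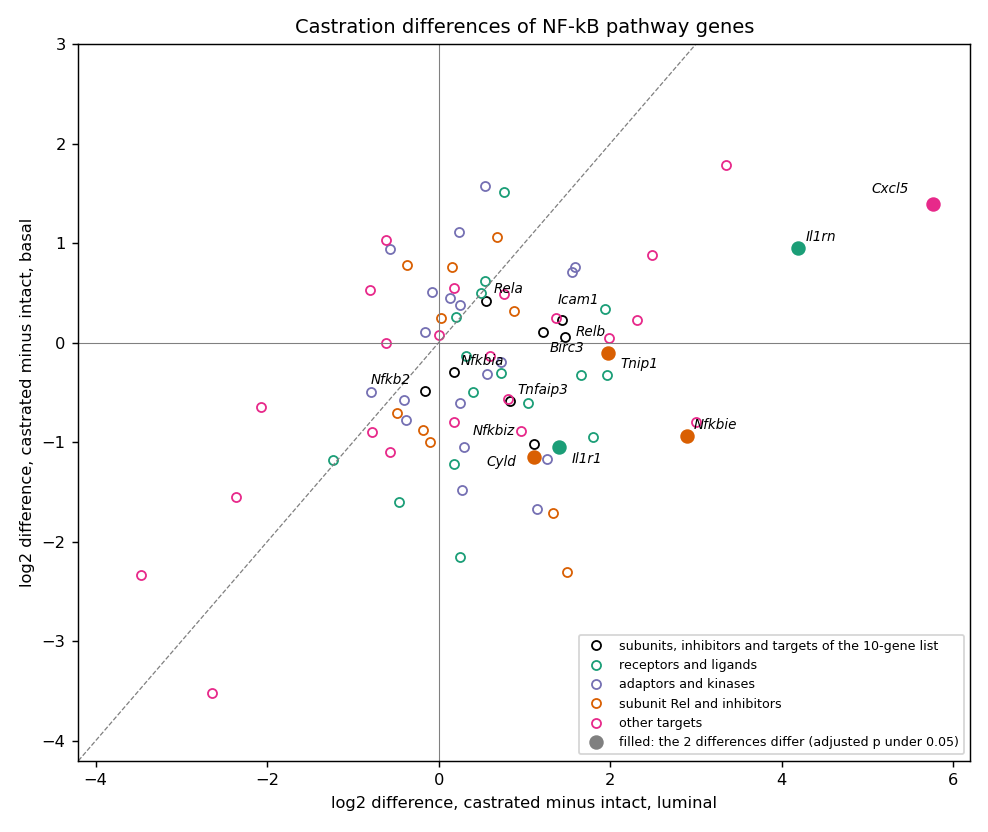
log2 castration differences in luminal cells (horizontal) and in basal cells (vertical) of the 8 tested genes and the 73 further pathway genes, coloured by role; the dashed line marks equal differences. The 6 filled genes, whose differences themselves differed, lie below the line.

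Castration differed between the cell types for 6 of the 73 further genes, all with a more positive difference in luminal cells, against 0.676% of all genes in that direction. These were Il1rn, Il1r1, Nfkbie, Tnip1, Cyld, a deubiquitinase that restrains the pathway, and Cxcl5. Cyld had a signal of 2231 ± 383 in castrated and 1027 ± 172 in intact luminal cells (1.11 ± 0.34), and of 520.2 ± 147 in castrated and 1148 ± 194 in intact basal cells (-1.15 ± 0.34), neither difference passing alone (adjusted p = 0.0675 and 0.0803). With the replicate number as a block, 1 of the 73 passed.

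Between cell types in intact mice, 6 of the 73 were higher and 11 lower in luminal cells, where 11% of all genes were higher and 8.45% lower. The lower ones included the alarmin Il33 (-3.84 ± 0.58), the interleukin-1 receptor accessory chain Il1rap (-2.88 ± 0.66), Il1b (-2.01 ± 0.62), the receptor Tnfrsf12a (-1.13 ± 0.19) and Rel (-1.69 ± 0.35). The interferon-inducible chemokine Cxcl10 (-3.00 ± 0.24), the early response gene Ier3 (-1.57 ± 0.16) and Cxcl1 (-1.73 ± 0.21) were lower too. Higher in luminal cells were the protease gene Plau (5.84 ± 0.37), the adaptor Traf1 (2.99 ± 0.56), the inhibitor-like coactivator Bcl3 (1.30 ± 0.31), the ubiquitin ligase Itch (1.48 ± 0.40) and the kinase-complex subunit Ikbkg (1.71 ± 0.49). Traf5 (-2.60 ± 0.77) was lower. Il1b, Traf5, Ikbkg and Itch lost their calls under 4, 4, 2 and 1 of 12 leave-outs; Il1b on the luminal and Traf1 on the basal arrays lay under the 40th percentile throughout.

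In castrated mice 16 of the 73 were higher and 8 lower in luminal cells, where 11.2% of all genes were higher and 7.22% lower. Of the 13 genes of Rel and further inhibitors, 5 were higher in luminal cells, none was lower and 8 did not pass, as Nfkbia did not. The 4 with the lowest adjusted p were Tnip1 (2.16 ± 0.35), Cyld (2.10 ± 0.34), Itch (1.71 ± 0.40) and Nfkbie (2.38 ± 0.64), the last losing its call under 3 of 12 leave-outs. Also higher were Il1rn (4.17 ± 0.52), Tlr3 (2.91 ± 0.48), Il1r1 (2.28 ± 0.40), Plau (4.51 ± 0.37) and Cxcl5 (3.99 ± 0.58). Lower in luminal cells were Tnfrsf12a (-1.17 ± 0.19), Cxcl10 (-1.63 ± 0.24) and Il6 (-2.85 ± 0.53). Il6 read 15.4 and 26.1 on castrated luminal replicates 1 and 2, under the 40th percentiles of 35.3 and 34.1, so its fold depends on the added constant.

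Markers of other cells were read beside these results, since leukocytes and endothelium also express Icam1. Over 17 leukocyte markers the summed signal was 641 to 1030 on the castrated luminal arrays and 10410 to 13220 on the intact luminal arrays, and Cd52 alone gave 28.5 to 484 and 9602 to 11519 of these. Ptprc, which encodes the pan-leukocyte antigen CD45, read 9.218, 11.99 and 19.58 in castrated luminal cells, against 36.3, 57.1 and 32.9 in intact luminal cells, above the 40th percentile on 1 of these 6 arrays and without passing (adjusted p = 0.455). Of the 13 leukocyte markers tested, none rose in castrated luminal cells and 1 fell (Cd52), where 2.9% of all genes were higher and 2.96% lower. Of the differences, 10 were negative and 3 positive, those of Tyrobp (0.45), Cd53 (0.27) and Lyz2 (0.11). Over 8 endothelial markers the sums were 244 to 305 in castrated and 452 to 1358 in intact luminal cells, and over 8 fibroblast markers 639 to 877 and 7704 to 13800. Of the 8 fibroblast markers, 6 passed lower in castrated luminal cells and none higher, where 2.96% of all genes passed lower. The part of leukocytes, endothelium and fibroblasts in the luminal values, those of Icam1 and Birc3 among them, was not tested. On basal arrays the leukocyte sums were 2209 to 3237 in castrated and 1582 to 3145 in intact mice, and the fibroblast sums 22400 to 29270 and 39760 to 50730. Of these fibroblast sums, Dcn alone gave 19296 to 25683 and 19696 to 22817. In basal cells 4 of the 8 fibroblast markers passed lower after castration and none higher, where 1.5% of all genes passed lower. Lyz2, a myeloid marker, was the 1 of the 13 leukocyte markers that passed with castration in basal cells (2.40 ± 0.59, adjusted p = 0.0398), where 1.12% of all genes passed higher. In castrated mice 3 of the 13 (Tyrobp, Lyz2 and Cd68) were lower in luminal than in basal cells, where 7.22% of all genes were lower. In intact mice 1 of the 13 was lower and 1 higher, where 8.45% of all genes were lower and 11% higher. The part of such cells in the basal and the luminal minus basal values was not tested.

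For the 6 genes that passed somewhere, the 3 genes with the most similar pattern were sought by the root mean square difference of log2 values over the 12 arrays, after each gene was centred on its own mean. The nearest to Icam1 were Fosl1 (0.252), Ndrg1 (0.301) and Tfrc (0.316), where Icam1 itself deviated from its mean by 1.26. The nearest to Birc3 were Nbn (0.185), Tax1bp1 (0.230) and Uevld (0.255), and to Tnfaip3 Amot (0.324), Atp10a (0.344) and Usp6nl (0.356). Nfkbiz lay nearest to Brd9 (0.244), Txnip (0.371) and Zwint (0.391), Nfkb2 to Golim4 (0.284), Tug1 (0.286) and Syne2 (0.326), and Nfkbia to Srsf3 (0.173), Ppp1r12a (0.180) and Srf (0.210). These distances describe the 12 arrays and carry no test.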

How the data were processed

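Per the labels' protocols, RNA went through an RNeasy Micro extraction and a NuGEN Pico amplification. Each deposited value is a MAS5 intensity, as the submitters' processing notes name the tool; the MAS5 version is not given in the sources used here. Of 45101 probe sets, 64 controls were left out; by the platform annotation, 34945 had 1 symbol, 932 had several and 9160 were unnamed here. After adding 16, log2 was taken. A probe set entered if 3 or more arrays had it over their own 40th percentile, and each gene was read from its brightest one by mean. The 4 group means of all 12 arrays were fitted with limma 3.58.1 in R 4.3.3 (intensity trend, 8 residual degrees of freedom, Benjamini-Hochberg over 14645 genes). Other work used Python 3.11.15, pandas 2.3.3 and matplotlib 3.10.9. The fit was tested on simulated data.

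The 10 genes, the pathway and marker lists and the tests were chosen with earlier results of these data known, and patterns already known from them are no independent support. All 10 genes were to be named in every comparison, with up to 4 passing pathway genes per role and comparison by lowest adjusted p. For each gene of the 10 that passed, the 3 most similar genes were to be named. Il1r1 and Cyld under castration within 1 cell type, Ccl2 under castration in luminal cells, and the markers were named outside that rule. The design text speaks of sets with paired intact animals, and equal replicate numbers were taken as a set. Deviations from the group means correlated at -0.00723 to 0.0258 across genes between same-numbered arrays. The fit had no such block, and an alternative added it. Alternatives also covered scaling, added constants of 1 and 64, no filter, every probe set on its own, no intensity trend, fits of 2 groups and leaving out arrays or whole sets.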

Additional observations from a re-analysis of the deposited data

Results flagged for a closer look

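Of the 73 further pathway genes, 6 had a castration difference that itself differed between luminal and basal cells by limma's test of that difference. The luminal minus basal value was 3.24 ± 0.74 for Il1rn (adjusted p = 0.0435), 2.45 ± 0.57 for Il1r1 (0.0473), 3.83 ± 0.90 for Nfkbie (0.0496), 2.08 ± 0.49 for Tnip1 (0.0496), 2.25 ± 0.48 for Cyld (0.0291) and 4.37 ± 0.83 for Cxcl5 (0.0137). Most of these calls lay close to the threshold. Over the 12 leave-outs of 1 array, the call was lost 9 times for Il1rn, 11 for Il1r1, 10 for Nfkbie, 11 for Tnip1, 6 for Cyld and 1 for Cxcl5, while the value stayed between 2.84 and 3.47, 2.19 and 2.66, 3.24 and 4.51, 1.77 and 2.29, 2.00 and 2.41, and 4.06 and 4.85, in the same order. Over all alternatives their adjusted p-values ranged from 0.00295 to 0.392. The size of the Cxcl5 value depended on the added constant, as its signal lay under the 40th percentile on every intact array. It was 5.27 with 1 added, without passing by limma (adjusted p = 0.0585), and 3.57 with 64 added. Groups of 3 arrays are too small for a test of single outlying arrays.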

How the results depend on the processing

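For castration in luminal cells, the 2 calls among the 8 genes became 5 under median centring, 0 without an intensity trend and 4 with only the groups compared, and 0 to 2 over the leave-outs. The 13 calls among the 73 further genes became 23 under median centring (22 higher, 1 lower) and 20 with only the groups compared, and 4 to 16 over the leave-outs: 7, 6 and 5 without castrated luminal replicate 1, 2 and 3. For castration in basal cells, the 3 calls among the 73 became 1 with quantile normalization, without an intensity trend and with only the groups compared, and 0 to 5 over the leave-outs, with 0 without castrated basal replicate 2 or 3 or intact basal replicate 2 or 3, 1 without castrated luminal replicate 1 and 5 without intact luminal replicate 3. For luminal against basal cells in intact mice, the 3 calls among the 8 became 1 without an intensity trend and 1 to 4 over the leave-outs (1 without intact luminal replicate 1 or 2 or intact basal replicate 3), and the 17 among the 73 were 8 to 19. In castrated mice the 3 calls among the 8 were 2 to 4 and the 24 among the 73 were 11 to 29. For the difference of castration effects, the 0 calls among the 8 became 1 (Nfkbiz) with 64 added and 0 to 2 over the leave-outs, and the 6 among the 73 became 1 with 1 added, with the replicate block and without an intensity trend, 2 without a filter, and 0 to 6 over the leave-outs. The replicate block changed no call of the 8 genes and moved no other count of calls by over 1.5 times.

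Differences that turned sign had not passed. Under median centring, castration gave 0.22 for Nfkb2 in luminal and 0.048 for Nfkbia in basal cells, and with quantile normalization luminal minus basal Nfkbia in castrated mice was 0.32. Over the leave-outs, castration gave -0.45 to 0.077 for Nfkb2 and -0.016 to 0.40 for Nfkbia in luminal cells, and -0.97 to 0.0025 for Nfkb2, -0.24 to 0.32 for Relb and -0.20 to 0.43 for Birc3 in basal cells. Luminal minus basal was -0.65 to 0.081 for Birc3 in intact mice and -0.59 to 0.11 for Rela in castrated mice, and the difference of castration effects was -0.28 to 0.95 for Nfkb2 and -0.21 to 0.47 for Rela. The causes were not tested. With 3 arrays a group and no detection calls, dim probe sets such as that of Il1a carry no usable order.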
